A study of Mus musculus with 12 samples.

Results

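Astrocytes that react to inflammation were first sorted by their transcripts into a set labelled A1, seen after bacterial lipopolysaccharide, and a set labelled A2, seen after ischaemia. 7 genes of the A1 label were examined here, chosen by symbol: Serping1, H2-T23, Ggta1, Fbln5, Srgn, Amigo2 and Fkbp5. 6 of them are among the 756 genes of the table used here, and all 6 passed the minimum for testing, as did 695 genes in all. Ggta1, which encodes the galactosyltransferase that builds the alpha-Gal sugar epitope, was not analysed here. Of these members, Srgn was higher in vehicle-treated 5xFAD than in non-transgenic hippocampus. The estimates of the other 5 were also above 0 in that comparison and did not pass the test, with that of Amigo2 near 0. No member passed the test between TPPU-treated and vehicle-treated 5xFAD mice.

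The RNA came from whole hippocampus of 12 mice that the labels call male, 4 to a group, and was measured on a NanoString nCounter mouse panel of neuroinflammation genes. Its barcoded probes bind transcripts and are tallied one at a time, without amplification. The first group was 5xFAD mice given TPPU, an inhibitor of soluble epoxide hydrolase, at 3 mg/kg in the drinking water from 2 months of age for 2.5 months. The second group was 5xFAD mice given the vehicle alone, 1% polyethylene glycol 400. The third was non-transgenic littermates given the same vehicle, and no non-transgenic mice given TPPU are among the samples used here. 5xFAD mice carry mutant human transgenes of familial Alzheimer's disease under the neuronal Thy1 promoter and deposit amyloid early, so the transgenes are not driven in astrocytes. Values are probe counts that the authors normalized to 10 housekeeping genes, called normalized counts below.

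As background, the A1 state is induced in cultured mouse astrocytes by signals that activated microglia release, namely interleukin 1 alpha, tumour necrosis factor and complement C1q. Reactive astrocytes are now seen as more varied than the A1 and A2 labels allow, and several label genes are also expressed by other cells. Serping1 encodes the C1 inhibitor, a serpin that blocks the proteases of the C1 complex. H2-T23 encodes the non-classical MHC class I molecule Qa-1, Fbln5 an extracellular matrix protein of elastic fibres, and Srgn serglycin, a granule proteoglycan best known from blood cells. Amigo2 encodes a leucine-rich-repeat adhesion protein that marks CA2 pyramidal neurons in the mouse hippocampus. Fkbp5 encodes a co-chaperone of the glucocorticoid receptor and is itself induced by glucocorticoids.

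The labelled tissue was checked first. Summed over 10 neuronal markers, normalized counts ranged from 72103 to 93764 in TPPU-treated 5xFAD, from 70004 to 92186 in vehicle-treated 5xFAD mice and from 82963 to 85354 in non-transgenic mice. The sum over 5 astrocyte identity genes (Aldh1l1, Slc1a3, Gja1, Sox9 and S100b) ranged from 18050 to 23509, 21042 to 29426 and 16909 to 21371 in these groups, in that order. The sum over 9 oligodendrocyte markers ranged from 61753 to 97020, 40676 to 79309 and 68404 to 100824 in the same order. Vehicle-treated 5xFAD mouse 1 had the lowest oligodendrocyte and neuronal sums. Total probe counts were 1050334 to 1314362 per mouse. The Y-linked genes Uty and Kdm5d were at 366 to 518 and 306 to 369 normalized counts in 6 mice, 2 of each group, but at 15.2 to 33.5 and 14.2 to 22.8 in the other 6, which goes against the label of male. Ttr, a choroid plexus gene, was at 16461 in non-transgenic mouse 4 and 4270 in vehicle-treated 5xFAD mouse 1, against 77.1 to 284 in the other 10. The results that follow include these mice, and values within the Y-linked classes or without the mice with high Ttr are given beside several of them.

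The members were moderately abundant and varied more than most panel genes. Their means over the 12 mice ran from 94.0 normalized counts for Fbln5 to 665 for Amigo2. The lowest whole count behind any value was 36, for Fbln5, where counting error alone is 16.7%, and the lowest counts of the other members were 83 to 335, with smaller counting errors. The within-group SD on the log2 scale was 0.42 for Srgn, 0.44 for Fkbp5, 0.48 for H2-T23, 0.52 for Fbln5, 0.53 for Amigo2 and 0.59 for Serping1. The median of all tested genes was 0.27, and each member varied more than 80.6% to 91.9% of them.

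**Figure D1:**
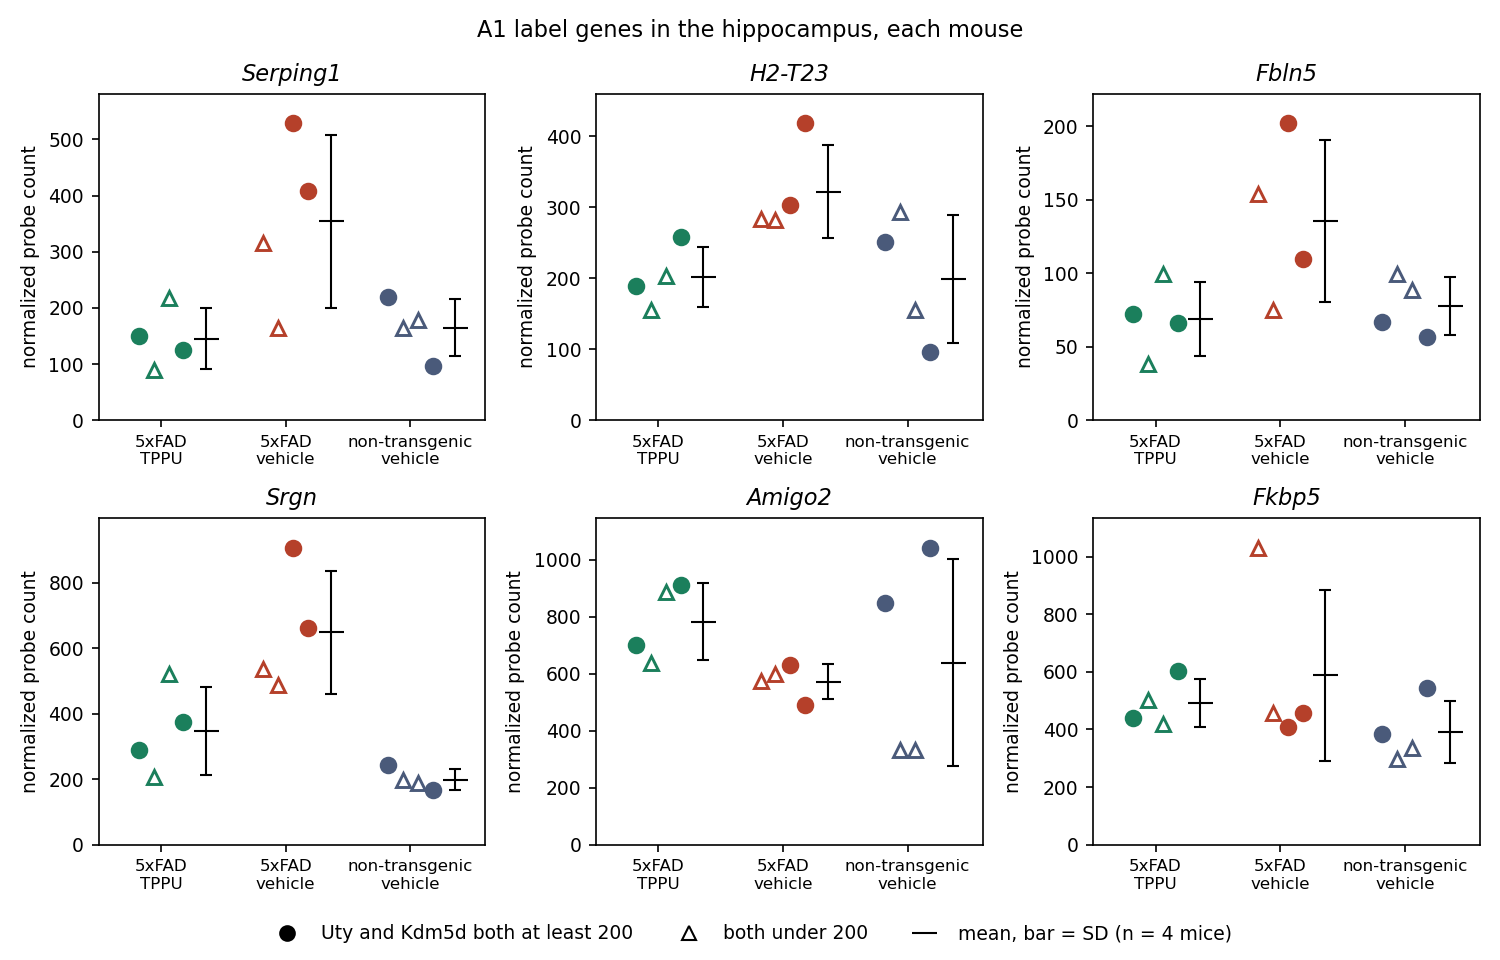
Normalized probe count (linear axis from 0) of the 6 measured members in each mouse, by group, with the mean and SD of 4 mice beside the points; filled circles are mice with both Y-linked genes at 200 or more, and open triangles are mice with both under 200. Srgn in the 4 vehicle-treated 5xFAD mice lay between 488 and 906, above all non-transgenic mice at 167 to 242, while Amigo2 in non-transgenic mice split into a pair near 332 and a pair at 847 and 1042.

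Srgn, the serglycin gene, had 289, 206, 521 and 375 normalized counts in TPPU-treated 5xFAD mice 1 to 4, against 537, 488, 906 and 661 in vehicle-treated 5xFAD and 242, 198, 187 and 167 in non-transgenic mice. Every vehicle-treated 5xFAD mouse was above every non-transgenic mouse, and one TPPU-treated mouse, mouse 3, reached into the vehicle-treated range. Means were 348 ± 134 in TPPU-treated 5xFAD, 648 ± 187 in vehicle-treated 5xFAD and 198 ± 31.7 in non-transgenic mice (SD, n = 4 each). On the log2(value + 1) scale of the test, the fold change between vehicle-treated 5xFAD and non-transgenic mice was 3.19 (95% interval 2.12 to 4.79), with a limma adjusted p of 0.00204, and Srgn ranked 16 among the 695 tested genes by p. In this whole-tissue RNA, a change in the number of cells of a type and a change in RNA per cell cannot be told apart. Within the mice with high Y-linked counts the fold was 3.83, and within those with low counts 2.65, each from 2 mice against 2. Srgn kept its call under all 26 other settings, with log2 changes of 1.33 to 1.80.

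Serping1, the C1 inhibitor gene, had 150.2, 88.6, 218 and 125 normalized counts in TPPU-treated 5xFAD mice, against 316, 164, 529 and 407 in vehicle-treated 5xFAD and 219, 165, 178 and 96.4 in non-transgenic mice. 3 of the 4 vehicle-treated 5xFAD mice were above all other mice, and vehicle-treated mouse 2 lay among the mice of the other groups. The mean was 145 ± 54.5 in TPPU-treated 5xFAD, 354 ± 154 in vehicle-treated 5xFAD and 165 ± 51.2 in non-transgenic mice. The fold between vehicle-treated 5xFAD and non-transgenic mice was 2.05 (1.16 to 3.64), which did not pass limma's test after adjustment (adjusted p = 0.0789). Without vehicle-treated mouse 2 its log2 change of 1.04 became 1.36 and its adjusted p 0.0166. It was 0.80 without non-transgenic mouse 4 (adjusted p = 0.217), 0.80 without vehicle-treated mouse 3 (adjusted p = 0.239), 0.82 without both mice with high Ttr (adjusted p = 0.253) and 0.56 with quantile normalization (adjusted p = 0.223). The fold was 3.17 within the mice with high Y-linked counts and 1.33 within those with low counts.

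H2-T23, the Qa-1 gene, had 189, 156, 203 and 258 normalized counts in TPPU-treated 5xFAD mice, against 284, 282, 304 and 418 in vehicle-treated 5xFAD and 251, 294, 155 and 96.4 in non-transgenic mice. All TPPU-treated mice lay below all vehicle-treated 5xFAD mice, while non-transgenic mice spanned almost the whole range below 300. Means were 202 ± 42.8 in TPPU-treated 5xFAD, 322 ± 65.0 in vehicle-treated 5xFAD and 199 ± 89.7 in non-transgenic mice. The 1.74-fold value of vehicle-treated 5xFAD over non-transgenic mice (1.09 to 2.77) missed the threshold in limma's test (adjusted p = 0.0974). Without non-transgenic mouse 2, the highest of its group, the log2 change of 0.80 became 1.03 and the adjusted p 0.0387. It was 0.49 without non-transgenic mouse 4, the lowest (adjusted p = 0.247), 0.55 without both mice with high Ttr (adjusted p = 0.214), 0.51 with median centring (adjusted p = 0.187) and 0.36 with quantile normalization (adjusted p = 0.348). The fold was 2.28 within the mice with high Y-linked counts and 1.32 within those with low counts.

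Fbln5, the fibulin gene and the least abundant member, had 72.5, 38.4, 99.6 and 65.9 normalized counts in TPPU-treated 5xFAD mice, against 154, 75.0, 202 and 109.8 in vehicle-treated 5xFAD and 67.1, 99.3, 88.7 and 56.3 in non-transgenic mice. Vehicle-treated 5xFAD mouse 3 was highest and TPPU-treated mouse 2 lowest, the same 2 mice that held the extremes of Serping1, and each group overlapped with the others. Means were 69.1 ± 25.1 in TPPU-treated 5xFAD, 135 ± 55.0 in vehicle-treated 5xFAD and 77.8 ± 19.6 in non-transgenic mice. The fold of vehicle-treated 5xFAD over non-transgenic mice was 1.66 (0.989 to 2.78), and limma's adjusted p was 0.183. When all mice were quantile normalized this log2 change of 0.73 became 0.092, and it was 0.45 with median centring and 0.49 without both mice with high Ttr. Within the mice with high and with low Y-linked counts the fold was 2.40 and 1.15.

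RefSeq promoter windows of build GRCm38.p6, from 250 bases before to 50 after a transcript start, were matched to 5 members in 7 windows; Serping1 had none. They were searched on both strands for the interferon-stimulated response element, spelled as GAAA, any 2 bases and GAAA, because several A1 label genes respond to interferon. 3 of the 7 windows held it, against 3.44% of 32851 windows of the same length: the downstream Srgn window, the downstream Fbln5 window and the H2-T23 window. All 3 genes lie on the minus strand, and the sequences are printed in the direction of transcription with the match in capitals. The match started 220 bases before the start in Srgn, 5 after it in Fbln5 and 124 before it in H2-T23; in Fbln5 and H2-T23 it is the reverse complement.
Srgn, chr10:62507708-62508007: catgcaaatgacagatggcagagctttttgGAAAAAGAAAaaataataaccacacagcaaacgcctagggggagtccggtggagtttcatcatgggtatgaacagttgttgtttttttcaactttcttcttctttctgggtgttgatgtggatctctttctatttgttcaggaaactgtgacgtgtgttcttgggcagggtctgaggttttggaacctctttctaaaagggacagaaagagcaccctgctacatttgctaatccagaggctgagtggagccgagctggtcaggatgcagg
Fbln5, chr12:101818435-101818734: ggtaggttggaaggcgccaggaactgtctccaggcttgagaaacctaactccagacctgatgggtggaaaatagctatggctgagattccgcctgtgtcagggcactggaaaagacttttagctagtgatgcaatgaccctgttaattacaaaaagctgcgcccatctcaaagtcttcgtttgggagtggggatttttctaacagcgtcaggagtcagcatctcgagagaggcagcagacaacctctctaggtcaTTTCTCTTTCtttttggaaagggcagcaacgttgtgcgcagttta
H2-T23, chr17:36032652-36032951: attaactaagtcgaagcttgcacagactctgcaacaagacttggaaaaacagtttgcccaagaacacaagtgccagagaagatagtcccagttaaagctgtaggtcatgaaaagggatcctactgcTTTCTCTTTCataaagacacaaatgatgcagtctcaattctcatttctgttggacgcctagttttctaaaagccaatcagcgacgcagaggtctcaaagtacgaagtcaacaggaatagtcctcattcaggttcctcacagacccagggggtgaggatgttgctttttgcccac
The other Srgn and Fbln5 windows and those of Amigo2 and Fkbp5 held no such match. The gamma-activated site, spelled as TTC, any 3 bases and GAA, was in none of the 7 windows and in 8.30% of all windows, the kappa-B site in none and in 4.51%, and the glucocorticoid response element, spelled as GNACA, any 3 bases and TGTNC with N for any base, in none and in 0.475%. The shares are over all windows given, and the share among windows of panel genes was not counted. The matches therefore show no excess over the panel. These are matches of letters in a short window and say nothing of binding.

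Amigo2, the adhesion gene, had 699, 637, 885 and 911 normalized counts in TPPU-treated 5xFAD mice, against 573, 598, 629 and 489 in vehicle-treated 5xFAD and 847, 333, 332 and 1042 in non-transgenic mice. All TPPU-treated mice lay above all vehicle-treated 5xFAD mice, and the non-transgenic mice fell on both sides of both 5xFAD groups. Means were 783 ± 136 in TPPU-treated 5xFAD, 572 ± 60.1 in vehicle-treated 5xFAD and 639 ± 362 in non-transgenic mice. Vehicle-treated 5xFAD and non-transgenic mice differed 1.02-fold (0.614 to 1.69, limma adjusted p = 0.971), and the log2 change of 0.03 turned negative under 6 of 26 settings, among them median centring (-0.26) and quantile normalization (-0.24). Without both mice with high Ttr it was 0.32. The non-transgenic mice at 847 and 1042 were those with high Y-linked counts, and mouse 4, at 1042, was also the one with the highest Ttr. Within the high Y-linked class Amigo2 averaged 559 in vehicle-treated 5xFAD and 945 in non-transgenic mice, and within the low class 586 and 332 in the same order.

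Fkbp5, the co-chaperone gene, had 441, 503, 419 and 604 normalized counts in TPPU-treated 5xFAD mice, against 1031, 456, 407 and 458 in vehicle-treated 5xFAD and 384, 299, 336 and 544 in non-transgenic mice. Vehicle-treated 5xFAD mouse 1, a mouse with high Ttr and the lowest oligodendrocyte sum, stood far above the rest, which overlapped between groups. Means were 492 ± 82.9 in TPPU-treated 5xFAD, 588 ± 296 in vehicle-treated 5xFAD and 391 ± 108 in non-transgenic mice. The fold of vehicle-treated 5xFAD over non-transgenic mice was 1.43 (0.937 to 2.18, limma adjusted p = 0.247). Without that mouse the log2 change of 0.52 became 0.21, with an adjusted p of 0.545, and it was 0.38 without both mice with high Ttr and 0.23 with median centring or quantile normalization. The fold was 0.945 within the mice with high Y-linked counts and 2.16 within those with low counts, which include that mouse.

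Counted together, 1 of the 6 members was higher in vehicle-treated 5xFAD than in non-transgenic mice and none was lower, while 18.7% of all tested genes were called higher and 0% lower. A share of 1 in 6 is close to that background. At an unadjusted p under 0.05, 3 members were higher (Srgn, Serping1 and H2-T23), against 28.1% of all tested genes. 1 member, Srgn, had all vehicle-treated 5xFAD mice above all non-transgenic mice, as had 21.6% of all tested genes, and no member had them all below, as had 0.144%. The members' median log2 change was 0.76, and that of all tested genes was 0.13. All 6 estimates were above 0, as were 72.2% of all tested genes, though that of Amigo2 turned with the scaling.

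**Figure D2:**
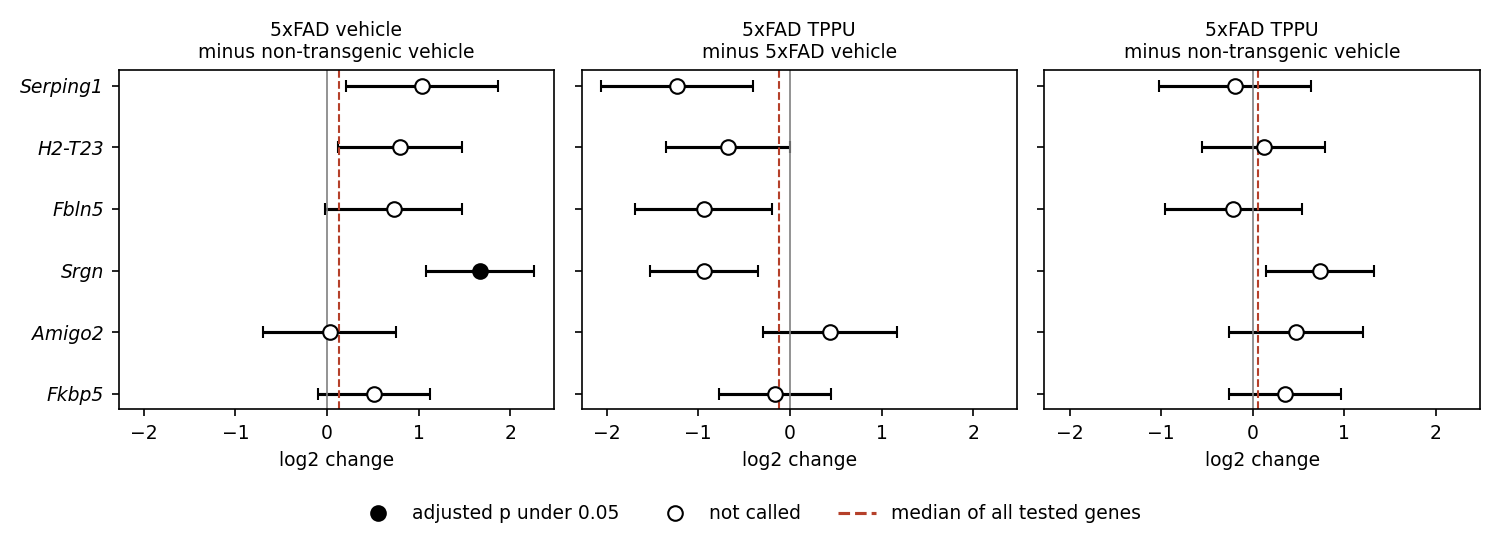
Log2 change with its 95% interval for each member in the 3 comparisons, from limma; a filled point is a gene called at an adjusted p under 0.05, and the dashed line is the median of all 695 tested genes. Srgn in vehicle-treated 5xFAD minus non-transgenic mice, at 1.67, is the only filled point among the 18.

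In TPPU-treated against vehicle-treated 5xFAD mice, Serping1 was 0.426-fold (0.240 to 0.755), Srgn 0.522-fold (0.348 to 0.785), Fbln5 0.521-fold (0.310 to 0.873) and H2-T23 0.626-fold (0.393 to 0.997). None passed limma's test over all genes, with adjusted p values of 0.175, 0.163, 0.212 and 0.270 in that order. Amigo2 was 1.36-fold (0.818 to 2.25, limma adjusted p = 0.513) and Fkbp5 0.894-fold (0.586 to 1.37, limma adjusted p = 0.785). For Srgn the log2 change of -0.94 (SE 0.27) became -1.16, with an adjusted p of 0.0365, without TPPU-treated mouse 3, which had the highest Srgn of its group. Over all 12 fits without 1 mouse it ran from -1.16 to -0.71, with adjusted p values of 0.0365 to 0.463. Fkbp5 changed sign, from a log2 change of -0.16 with all mice to 0.15, without vehicle-treated mouse 1. Within the Y-linked classes the 4 lower members kept a negative log2 difference in both, at -1.75 and -0.71 for Serping1, -1.23 and -0.64 for Srgn, -1.10 and -0.79 for Fbln5 and -0.69 and -0.66 for H2-T23, in high-count then low-count mice. In the same order Amigo2 differed by 0.52 and 0.36, and Fkbp5 by 0.26 and -0.58.

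By the test, none of the 6 members was called in this comparison, and 0% of all tested genes were called in either direction. At an unadjusted p under 0.05, 4 members were lower, against 17.1% of all tested genes, and none was higher, against 1.01%. 1 member, H2-T23, had all TPPU-treated mice below all vehicle-treated mice, as had 4.32% of all tested genes. Amigo2 had them all above, as had 0.576%. The members' median log2 change was -0.81, and that of all tested genes -0.12. This comparison and the one above use the same 4 vehicle-treated 5xFAD mice, so a high or low value in those mice enters both with opposite sign.

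Set against non-transgenic mice, TPPU-treated 5xFAD mice had 1.67-fold Srgn (1.11 to 2.50), the member furthest from 1, which did not pass limma's test (adjusted p = 0.226). The log2 changes of the others were 0.47 for Amigo2, 0.35 for Fkbp5, 0.12 for H2-T23, -0.19 for Serping1 and -0.21 for Fbln5, with limma adjusted p values of 0.634 to 0.898. Those of H2-T23, Serping1 and Fbln5 changed sign when single mice were left out. None of the members and 0% of all tested genes were called. At an unadjusted p under 0.05, 1 member, Srgn, was higher, against 13.7% of all tested genes. No member kept the TPPU-treated and non-transgenic mice apart, against 6.19% of all tested genes with all TPPU-treated mice above and 0.863% with all below.

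**Figure D3:**
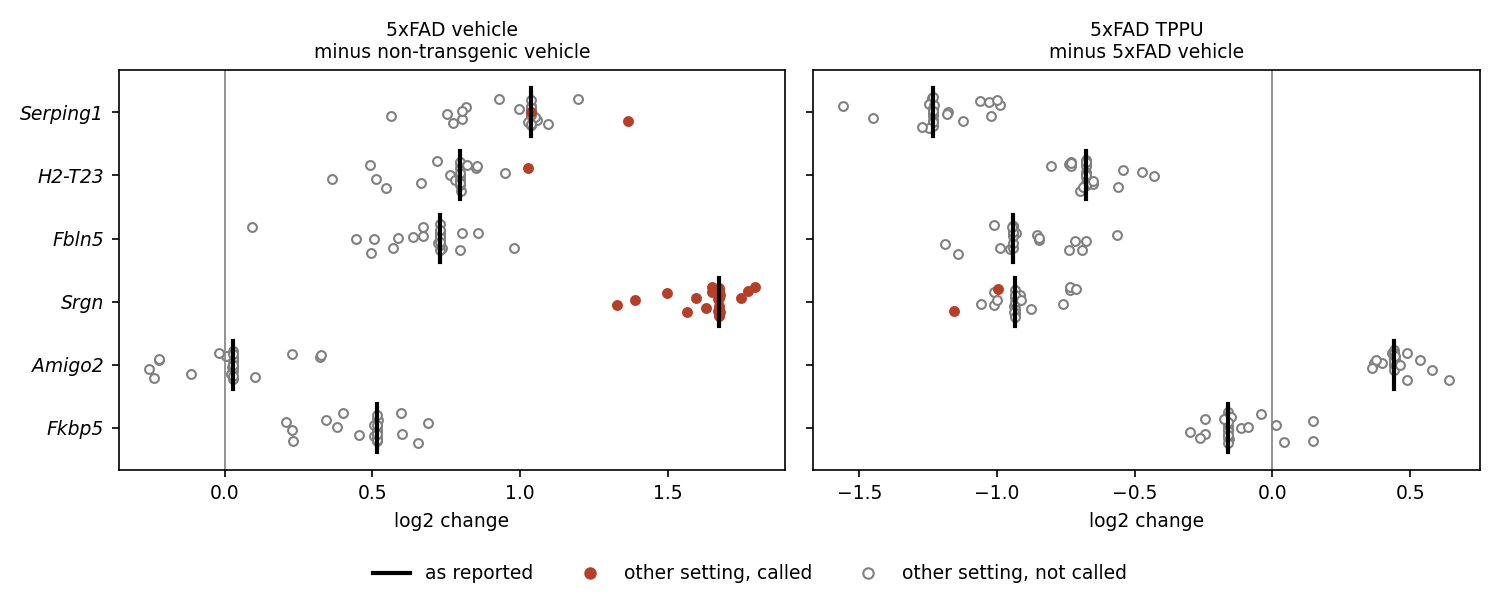
Log2 change of each member as reported (black bar) and under 26 other settings (points, red where called at an adjusted p under 0.05), for vehicle-treated 5xFAD minus non-transgenic mice and for TPPU-treated minus vehicle-treated 5xFAD mice. Srgn was called in every setting of the genotype comparison, at 1.33 to 1.80, while Amigo2 there lay on both sides of 0.

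**Figure D4:**
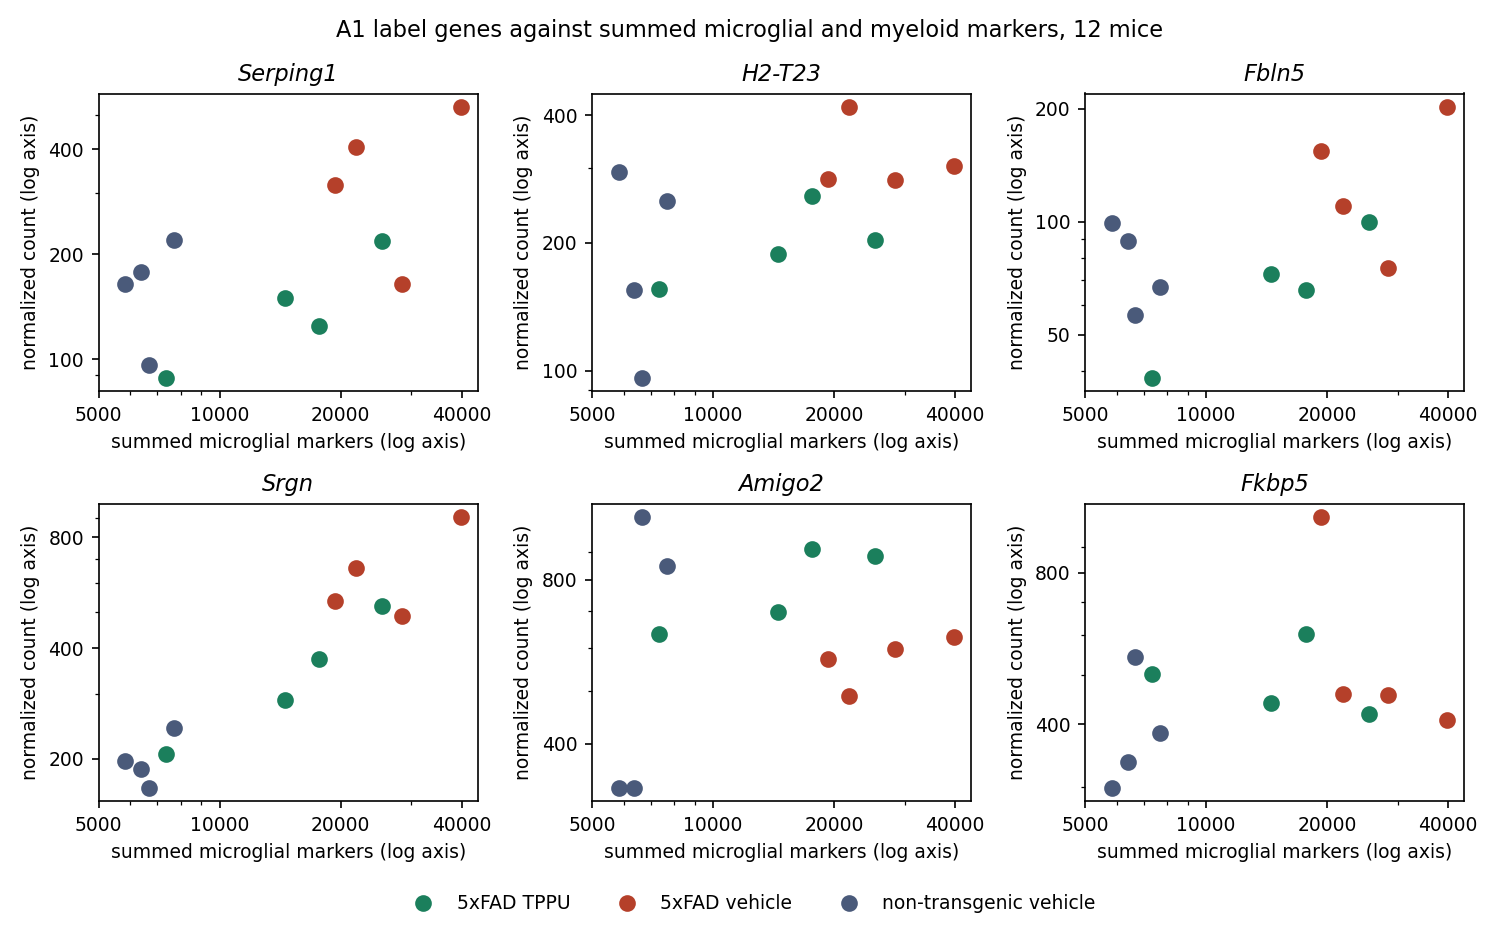
Normalized count of each member against the summed normalized count of 13 microglial and myeloid markers in the 12 mice (both axes logarithmic), with points coloured by group. Srgn lay along 1 line across groups (r = 0.96), and Fkbp5 and Amigo2 did not (r = 0.29 and 0.22).

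Levels of other cell types moved with some members. The sum over 13 microglial and myeloid markers ranged from 7336 to 25348 in TPPU-treated 5xFAD, from 19306 to 39807 in vehicle-treated 5xFAD mice and from 5824 to 7687 in non-transgenic mice, and no marker of the 13 was at 0. All 13 rose in vehicle-treated 5xFAD over non-transgenic mice, against 18.7% of all tested genes called higher, with a median log2 change of 1.93 against 0.13 over all tested genes. They included Ctss (4.94-fold), Dock2 (3.50-fold) and Itgam (2.74-fold). Across the 12 mice the log2 level of Srgn correlated with this sum at r = 0.96, and at 0.86 after each group's mean was subtracted. For Serping1 these values were 0.63 and 0.51, for Fbln5 0.59 and 0.55, for H2-T23 0.56 and 0.16, for Amigo2 0.22 and 0.39 and for Fkbp5 0.29 and -0.33. The mice share probe chemistry, scaling and tissue composition, and the part of microglia in the members' values was not tested. Endothelial markers, 6 in all, summed to 1043 to 1432 in TPPU-treated 5xFAD, from 1113 to 1702 in vehicle-treated 5xFAD mice and from 1242 to 1566 in non-transgenic mice, and none was called in any comparison. Serping1 correlated with the endothelial sum at 0.74 and, after group means were subtracted, 0.72. With the interferon response sum, Srgn correlated at 0.94 and 0.87, Serping1 at 0.86 and 0.82 and Fbln5 at 0.74 and 0.57. H2-T23 was at 0.67 and 0.25 with it, Amigo2 at 0.02 and 0.37 and Fkbp5 at 0.31 and -0.20. With the astrocyte identity sum, Srgn correlated at 0.77 and 0.55, Fbln5 at 0.74 and 0.64 and Serping1 at 0.73 and 0.59. H2-T23 was at 0.42 and -0.006 with it, Amigo2 at -0.21 and -0.24 and Fkbp5 at -0.08 and -0.57. With the neuronal sum, Fbln5 correlated at -0.69 and -0.69, Serping1 at -0.56 and -0.53 and Srgn at -0.39 and -0.51. The other members were at -0.28 to 0.02 with it, and at -0.27 to 0.07 after group means were subtracted. With the sum of 9 oligodendrocyte markers Fkbp5 correlated at -0.67 and -0.57, and the other members at -0.42 to 0.26 and -0.25 to 0.34.

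Among themselves, 3 members varied together from mouse to mouse, and the others did so less or not at all. After group means were subtracted, Serping1 and Srgn correlated at r = 0.83, Serping1 and Fbln5 at 0.81 and Fbln5 and Srgn at 0.74 over the 12 mice. H2-T23 correlated with these 3 at 0.33 to 0.51. Amigo2 and Fkbp5 correlated with each other at 0.42 and with the other 4 at -0.39 to 0.22. The median over all genes was highest in vehicle-treated 5xFAD mouse 3 (400 normalized counts) and lowest in TPPU-treated mouse 2 (261). Those mice also held the highest and lowest Serping1 and Fbln5. Subtracting group means does not remove such a level of a mouse, and its part in these correlations was not tested. Correlations of other gene pairs were not set beside them.

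The tested genes most like each member were found by Pearson r of log2 values over the 12 mice. For Srgn they were Tnfrsf1a, Ptprc and Fcgr3, at 0.97 each, and 0.87 to 0.89 after group means were subtracted; Ptprc encodes the leukocyte antigen CD45 and Fcgr3 an Fc receptor of myeloid cells. For Serping1 they were Spp1, the osteopontin gene (0.93), Cp, the ceruloplasmin gene (0.92), and Fgl2, a fibrinogen-like gene (0.90). Fbln5 was closest to Rapgef3 (0.96), Atp6v0e (0.90) and Cp (0.89), and H2-T23 to Setd1b (0.89), the inflammasome gene Casp1 (0.86) and Nrm (0.85). Amigo2 was closest to Cd109 (0.84), an A2 label gene, and to Bok (0.81) and Tle3 (0.79). Fkbp5 was closest to Dapk1 (0.87), to Nfkbia (0.84), which encodes the NF-kappa-B inhibitor, and to Bcl2l1 (0.79), with 0.94, 0.88 and 0.73 after group means were subtracted. Of 10 genes listed for the glucocorticoid response, only Fos was in the table, so that response was not assessed. Fos had 1014 ± 660 normalized counts in TPPU-treated 5xFAD, 1046 ± 658 in vehicle-treated 5xFAD and 597 ± 236 in non-transgenic mice. It was called in no comparison.

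Of 6 further A1 label genes, 3 were measured. Psmb8, an immunoproteasome subunit, had 238 ± 89.6 normalized counts in TPPU-treated 5xFAD, 508 ± 82.7 in vehicle-treated 5xFAD and 161 ± 64.8 in non-transgenic mice. It rose 3.29-fold in vehicle-treated 5xFAD over non-transgenic mice (limma adjusted p = 0.00227). Gbp2, an interferon-induced guanylate-binding protein, had 85.4 ± 31.1, 193 ± 56.8 and 89.9 ± 54.6 in the same order of groups and rose 2.32-fold in that comparison (limma adjusted p = 0.0375), a call lost under 14 of 26 settings. C3, the central complement component and the gene most used to mark A1 astrocytes, had 141 ± 146, 92.6 ± 56.0 and 43.6 ± 25.6, and its 2.09-fold value (0.622 to 6.99) was not called (limma adjusted p = 0.425). Between TPPU-treated and vehicle-treated 5xFAD mice, Psmb8 was 0.450-fold and Gbp2 0.441-fold, with limma adjusted p values of 0.130 and 0.175. Every TPPU-treated mouse was below every vehicle-treated mouse for both, as for 4.32% of all tested genes. For Gbp2 the highest TPPU-treated and the lowest vehicle-treated value were nearly equal, at 131.3 and 131.4. C3 was 1.14-fold there (limma adjusted p = 0.915).

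Of the signals that induce the A1 state, complement C1q had higher RNA in vehicle-treated 5xFAD than in non-transgenic mice. Its protein was not measured. The microglial and myeloid markers rose in the same comparison, and the part of microglia in the C1q values was not tested. C1qa was 2568 ± 1326 in TPPU-treated 5xFAD, 4761 ± 2002 in vehicle-treated 5xFAD and 987 ± 133 in non-transgenic mice. In vehicle-treated 5xFAD over non-transgenic mice, C1qa rose 4.56-fold, C1qb 3.45-fold and C1qc 4.49-fold, with limma adjusted p values of 0.00234, 0.00234 and 0.000366. Il1a, the interleukin gene, had 38.8 ± 6.83 in TPPU-treated 5xFAD, 40.8 ± 19.7 in vehicle-treated 5xFAD and 18.7 ± 3.96 in non-transgenic mice. Its 1.97-fold value was at the threshold and not called (limma adjusted p = 0.0501). It was called in 6 of the 25 other settings that tested it. With quantile normalization its log2 change was 0.37 (limma adjusted p = 0.365). Its non-transgenic level is as low as Uty and Kdm5d in mice with low Y-linked counts. Tnf averaged 12.2, 17.4 and 10.8 in the same order and lay under the minimum for testing. Of the receptors, Tnfrsf1a rose 2.20-fold in vehicle-treated 5xFAD over non-transgenic mice (limma adjusted p = 0.00227), and Tnfrsf1b, Il1r1 and Il1rap were not called. Il1rap, at a log2 change of -0.27, was called lower with median centring (-0.55, adjusted p = 0.0264) and with quantile normalization (-0.49, adjusted p = 0.0375), and was at -0.041 without both mice with high Ttr (adjusted p = 0.906). Against vehicle-treated 5xFAD mice, TPPU-treated mice had 0.505-fold C1qa, 0.401-fold C1qb, 0.463-fold C1qc and 0.603-fold Tnfrsf1a, with limma adjusted p values of 0.218, 0.130, 0.117 and 0.135, and 1.03-fold Il1a. C1qb, C1qc, Tnfrsf1a, Psmb8 and Gbp2 passed limma's test as lower in TPPU-treated mice with sample weights, with adjusted p values of 0.0339 to 0.0450. All of these but Gbp2 did so without TPPU-treated mouse 3, with 0.0322 to 0.0374. C1qc also did so without TPPU-treated mouse 2 (log2 change -0.83, limma adjusted p = 0.00948). Many other genes were called lower with sample weights or without mouse 3, as counted in the last section.

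Other astrocyte lists were counted from the same test, without a test of the list, and are to be read against the 18.7% of all tested genes called higher in vehicle-treated 5xFAD over non-transgenic mice. Of 9 tested pan-reactive genes, 4 rose in vehicle-treated 5xFAD over non-transgenic mice, among them Vim, an intermediate filament gene (3.33-fold), Osmr, the oncostatin M receptor (3.47-fold), and Cxcl10 (4.40-fold), and their median log2 change was 1.53. Of 10 tested A2 label genes, 2 rose, Cd14 (3.39-fold) and Tgm1 (3.71-fold), with a median of 0.29. Of the 5 astrocyte identity genes, 1 rose, the glutamate transporter Slc1a3 (1.29-fold), with a median of 0.36; these shares of the A2 label and astrocyte identity genes are near that background. Among 14 interferon response genes, which include Cxcl10, 11 rose, among them Slfn8 (3.53-fold) and Zbp1 (3.65-fold), with a median of 0.85. In non-transgenic mice, Tgm1 averaged 11.5 normalized counts, Cxcl10 15.8, Zbp1 21.2 and Slfn8 24.7. Those levels lie within or below the values of Uty and Kdm5d in mice with low Y-linked counts. The folds of these genes are therefore ratios to very low counts, and their size is uncertain. No gene of these lists was called lower in that comparison. In TPPU-treated against vehicle-treated 5xFAD mice no gene of any list was called, and the median log2 changes were -0.91 for pan-reactive, -0.19 for A2 label, -0.23 for astrocyte identity, -0.84 for interferon and -0.89 for microglial genes.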

How the data were processed

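Hippocampal RNA of 12 mice was hybridised to a panel of 770 transcripts. The values the authors deposited are signal values: per the labels, probe counts scaled to 10 housekeeping genes by their geometric mean. The software and any subtraction of background are not stated in the labels or headers. All values were whole multiples of 1 factor per mouse (100% within 0.01 of a whole number). These factors ran from 1.03 to 1.09 in TPPU-treated 5xFAD mice, from 0.946 to 1.10 in vehicle-treated 5xFAD mice and from 0.871 to 0.993 in non-transgenic mice, and the part of this scaling in the changes was not tested.

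Log2 of the value plus 1 was tested with limma 3.58.1 in R 4.3.3 where a gene averaged 20 or more, which kept 695 genes and left out 61. The 3 groups were fitted together, with 9 residual degrees of freedom and a mean-dependent prior for the spread. Calls needed an adjusted p (Benjamini-Hochberg, over all tested genes) under 0.05, and folds and 95% intervals come from this fit. The procedure was tested on simulated data. The members and gene lists were chosen with earlier results of these data known. Genes were named by rule: the members, every measured gene of the further A1 label, inducing signal and receptor lists, up to 3 called genes with the smallest p of each other list, and the 3 genes most like each member; 1 gene the rule took is not reported here. Uty, Kdm5d and Ttr fall outside this rule and were picked with their values known, and Fos is named as the only measured gene of its list. The mice of a group are separate animals per the labels, and their numbers were not taken as pairs. Figures were drawn with matplotlib 3.10.9. Alternatives were other pseudocounts, filters, scalings, variance models, blocks and mice left out.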

Additional observations from a re-analysis of the deposited data

Results flagged for a closer look

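In 18 sets of 4 mice (6 members in 3 groups), 2 values stood further from the other 3 mice than Dixon's 95% critical value allows; chance gives about 1 such set in 20. H2-T23 was at 418 normalized counts in vehicle-treated 5xFAD mouse 4, against 282 to 304 in the other 3 mice of its group. Fkbp5 was at 1031 in vehicle-treated 5xFAD mouse 1, against 407 to 458.

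The change of Amigo2 in vehicle-treated 5xFAD against non-transgenic mice had opposite signs in the 2 classes of Y-linked counts. This difference between the classes did not pass limma's test. The log2 change in mice with high Uty and Kdm5d minus that in mice with low counts was -1.57 (SE 0.30, limma adjusted p = 0.122 over 695 genes), with log2 differences of -0.76 and 0.81 in the 2 classes. Both vehicle-treated 5xFAD mice with high counts lay below both such non-transgenic mice, and both with low counts lay above theirs. An unadjusted p under 0.05 was reached by 72 of the 695 genes and an adjusted one by 1, and the classes were defined after the data were seen.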

How the results depend on the processing

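Of 26 other settings, most left the counts of called members as reported. In vehicle-treated 5xFAD against non-transgenic mice, 2 members were called higher with the replicate block, which added Serping1 (adjusted p = 0.0448), and 1 to 2 with single mice left out. Of 12 same-number pairs of mice, 6 correlated above 0.1 (range -0.37 to 0.39). Pairs with different numbers were not compared, so these values cannot show whether the numbers pair the mice. The block changed no other member call. In TPPU-treated against vehicle-treated 5xFAD mice, 1 member, Srgn, was called lower with sample weights (adjusted p = 0.0412), and 0 to 1 with single mice left out. Against non-transgenic mice, 0 to 1 was called higher in TPPU-treated 5xFAD with single mice left out: Srgn without TPPU-treated mouse 2 (0.96, adjusted p = 0.0319). Log2 changes that turned sign were those of Amigo2 in vehicle-treated 5xFAD against non-transgenic mice (-0.26 with median centring, -0.24 with quantile normalization, -0.11 with sample weights, -0.22 to 0.33 without single mice) and Fkbp5 in TPPU-treated against vehicle-treated 5xFAD (0.041 with median centring, 0.012 with quantile normalization, 0.15 without both high-Ttr mice, -0.30 to 0.15 without single mice). In TPPU-treated 5xFAD against non-transgenic mice they were H2-T23 (-0.066 with quantile normalization, -0.18 without both high-Ttr mice, -0.18 to 0.35 without single mice), Serping1 (-0.43 to 0.016 without single mice) and Fbln5 (-0.41 to 0.039 without single mice). Tnfrsf1b turned to -0.17 with quantile normalization in vehicle-treated 5xFAD against non-transgenic mice. The cause was not tested. Median centring moved the median of all genes there to -0.15 from 0.13 as deposited and gave 102 genes higher and 88 lower, quantile normalization 80 and 104, against 130 and 0 as deposited. In TPPU-treated against vehicle-treated 5xFAD, 43 genes were called lower and 1 higher with sample weights, and 39 lower without TPPU-treated mouse 3, against 0; in TPPU-treated 5xFAD against non-transgenic mice, 52 were higher and 3 lower with sample weights and 59 higher and 1 lower without TPPU-treated mouse 2, against 0. Planned count-model fits were not run, since the deposited values are normalized; voom weights, added after seeing the data, moved no member's call.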
